A study of Mus musculus with 16 samples.

Results

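The genes that write, copy, remove and protect DNA methylation were followed through Stat3 null and wild-type (WT) cells of chimeric mouse embryos. The set was chosen by name and holds 10 genes of the 29453 in the deposited matrix, and all 10 had a row: Dnmt1, Uhrf1, Dnmt3a, Dnmt3b, Dnmt3l, Tet1, Tet2, Tet3, Zfp57 and Trim28. The chimeras were made by injecting embryonic stem cells (ESCs) labelled with tdTomato, grown from picked Stat3 null colonies on the CD1 background and carrying a neomycin resistance cassette in place of Stat3 exons, into WT CD1 blastocysts. Chimeras of E7.5, E8.5 and E9.5, pooled at the earlier stages (at E7.5 as large and small embryos), were sorted into tdTomato-positive (null) and tdTomato-negative (WT, host) cells for single-cell RNA sequencing. How many such lines were injected was not given in the sources used here. WT here means CD1 host cells without the transgene and without a history as a cell line, so that anything the null cells brought from ESC culture and the loss of Stat3 cannot be told apart. Injected ESCs contribute mainly to the embryo proper, so extra-embryonic ectoderm of a chimera is made by the host. Each genotype had 2 libraries at E7.5, 2 at E8.5 and 4 at E9.5, lettered A to D within a group as names only. The labels give 4 pools of 1 embryo at E9.5 and the study's methods 2 embryos, so libraries of 1 genotype may share an embryo. Tests of E9.5 against E8.5 then give p-values that are too small. Null and WT cells were sorted from the same chimeras, and no block for the embryo could be fitted. Differences between embryos that both sorts share count as spread, so p-values between genotypes may be too small or too large, and a gene not called may still differ.

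Methylation of cytosine in CpG pairs is copied to the new strand after DNA replication by Dnmt1, which Uhrf1 brings to hemimethylated sites. New marks are set by Dnmt3a and Dnmt3b with the cofactor Dnmt3l, mostly around implantation and in germ cells, and Tet1, Tet2 and Tet3 oxidise the mark on the way to its removal. Zfp57 binds methylated imprinting control regions and recruits Trim28 (KAP1), which keeps their parent-of-origin marks through the early embryo.

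In GRCm38 with the GENCODE vM21 annotation, Dnmt1 lies on chromosome 9 (20907209 to 20959888, minus strand) and Uhrf1 on chromosome 17 (56303321 to 56323486, plus strand). Dnmt3a lies on chromosome 12 (3806007 to 3914443, plus strand), Dnmt3b on chromosome 2 (153649450 to 153687730, plus strand) and Dnmt3l on chromosome 10 (78041947 to 78063622, plus strand). Tet1 lies on chromosome 10 (62804570 to 62908996, minus strand), Tet2 on chromosome 3 (133463679 to 133545139, minus strand) and Tet3 on chromosome 6 (83362373 to 83459084, minus strand). Zfp57 lies on chromosome 17 (37001163 to 37010635, plus strand) and Trim28 on chromosome 7 (12999114 to 13031035, plus strand).

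The promoters shown are those of the genes the results turn on, as 250 bases before a RefSeq start (GRCm38.p6), with capitals marking a motif. Of 19 such windows over the 10 genes, those shown overlap no annotated exon of their gene. The STAT motif searched was TTCNNNGAA, which reads the same on both strands and stood in 7.02% of all promoters (2306 of 32851). The E2F motif searched was TTTNNCGC on either strand, found in 4.28% (1406). The Dnmt3l window holds 1 STAT motif, the Uhrf1 and Zfp57 windows 1 E2F motif each, and the Dnmt3b window neither. These are matches of letters and not binding sites. The windows are Dnmt3b (chr2:153649199-153649448, plus strand), Dnmt3l (chr10:78049592-78049841, plus strand, an inner start of the gene), Uhrf1 (chr17:56304063-56304312, plus strand, an inner start) and Zfp57 (chr17:37000913-37001162, plus strand).
Dnmt3b: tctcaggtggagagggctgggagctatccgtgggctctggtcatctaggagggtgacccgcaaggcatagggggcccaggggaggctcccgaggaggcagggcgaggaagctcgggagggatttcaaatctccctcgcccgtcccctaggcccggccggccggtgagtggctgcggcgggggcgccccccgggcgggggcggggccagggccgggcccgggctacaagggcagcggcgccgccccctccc
Dnmt3l: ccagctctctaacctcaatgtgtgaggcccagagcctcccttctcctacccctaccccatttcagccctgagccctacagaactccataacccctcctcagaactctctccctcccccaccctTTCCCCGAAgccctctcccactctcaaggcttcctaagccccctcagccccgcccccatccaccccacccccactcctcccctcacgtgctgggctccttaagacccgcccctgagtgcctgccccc
Uhrf1: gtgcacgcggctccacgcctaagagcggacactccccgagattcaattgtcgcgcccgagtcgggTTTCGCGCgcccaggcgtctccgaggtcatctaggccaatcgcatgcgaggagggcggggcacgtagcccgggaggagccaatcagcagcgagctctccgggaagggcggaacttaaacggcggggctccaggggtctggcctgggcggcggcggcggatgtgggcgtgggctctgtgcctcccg
Zfp57: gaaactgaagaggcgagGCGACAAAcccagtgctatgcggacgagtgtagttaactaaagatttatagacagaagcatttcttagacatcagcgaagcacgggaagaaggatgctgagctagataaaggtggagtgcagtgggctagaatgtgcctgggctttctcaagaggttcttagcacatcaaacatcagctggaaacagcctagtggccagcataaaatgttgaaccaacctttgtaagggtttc
The Uhrf1 window holds 30 CpG pairs, a ratio of observed to expected CpG of 1.00, against 21 and 0.61 for Dnmt3b, 6 and 0.47 for Zfp57, and 4 and 0.25 for Dnmt3l. The richest window among the members was that of Tet2, with 51 CpG pairs and a ratio of 1.19, above 99.3% of all promoters. No other member window held a STAT motif, and among the other windows E2F letters stood in a second Uhrf1 window (1) and in the innermost of 3 Dnmt1 windows (2, overlapping each other).

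Of 41832 cells in the matrix, 37841 were kept. The authors had called 3395 of the others doublets, and 596 came from the WT sort yet carried a tdTomato UMI. Libraries held 360 to 4327 cells and 20682659 to 138613245 UMIs (unique molecular identifiers, 1 per captured transcript), with a median of 18205 to 57792 UMIs per cell. Stat3 stood at 6.14 to 9.31 counts per 1000000 UMIs (CPM) in WT libraries and 1.16 to 2.53 in null libraries, so every library went with its label, although the 3' ends counted may lie outside the deleted part. Cell types are the authors' labels, 87 in all, and each of 43 markers fixed for 11 labels was higher in its label than in the other cells. Markers had also been fixed for cardiomyocytes, neural crest, forebrain, hindbrain and spinal cord, neuromesodermal progenitors, somites, gut and notochord. No check of those labels is given. E9.5 WT C and E9.5 WT D shared 292 cell barcodes, 15.3% of the cells of C and 7.38% of those of D, where the next pair of libraries shared 8. Of these shared barcodes, 3.42% carried the same cell type in both, and results that rest on these libraries are given with and without them where the count moved. At E7.5 the libraries of each genotype differed, with 1.24% and 7.01% of cells labelled Epiblast in WT A and B and 0.83% and 6.94% in null A and B. No label or library name ties a library to a size of embryo, so the E7.5 tests treat A and B of a genotype as replicates. A difference between A and B that both genotypes share is then counted as spread between libraries. A gene not called at E7.5 may therefore still differ between the genotypes.

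The copying pair was not called between stages in WT libraries. Dnmt1, the maintenance methyltransferase, stood at 152 and 144 CPM in the E7.5 WT libraries, 147 and 145 at E8.5, and then 176, 191, 167 and 169 at E9.5. In null libraries it stood at 160 and 139 CPM, then 152 and 140.0, and then 180.1, 189, 161 and 164, so the genotypes overlapped at every stage. Uhrf1, its recruiter, stood in WT libraries at 184 and 149 CPM at E7.5, then 135 and 142, and 173, 180.1, 171 and 160.5 in the last stage, so that both E8.5 libraries lay below all others. Neither gene passed the test between stages in WT library sums (edgeR quasi-likelihood test, Benjamini-Hochberg over 15567 genes, called at adjusted p under 0.05). Their largest difference there was +0.15 ± 0.093 (log2 fold change ± SE) for Dnmt1 from E7.5 to E8.5. In CPM all 4 E9.5 WT libraries of Dnmt1 lay above both E8.5 ones, yet the fitted change was +0.00 ± 0.080. The fit leaves haemoglobin, ribosomal, mitochondrial and predicted genes out of the library size and scales by TMM, whereas CPM is taken per all UMIs, so fitted changes and CPM ratios differ between stages for every gene. Trim28, the KAP1 corepressor, stood at 314 and 253 CPM, 207 and 237 CPM, and 265, 270.0, 299.8 and 264 CPM in WT libraries of the successive stages, with both E8.5 libraries below all others and neither step called.

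Dnmt3b, the main de novo enzyme of the epiblast, had a far larger range. It stood at 311 and 546 CPM in the E7.5 WT libraries, 34.5 and 47.7 at E8.5, and then 27.4, 30.1, 27.1 and 30.4 at E9.5. The stages E7.5 and E8.5 did not overlap, and every E9.5 library lay below both E8.5 libraries. The fall from E7.5 to E8.5 was −3.22 ± 0.29 on the log2 scale (edgeR adjusted p 5.77e-06), and that from E8.5 to E9.5 was −0.77 ± 0.23 (adjusted p 0.0174). In null libraries Dnmt3b went from 312 and 423 CPM to 32.2 and 53.3 CPM and to 27.0 to 31.5 CPM, with log2 changes of −3.02 and −0.79, both called. The second fall was no longer called in WT libraries without E8.5 WT B (−0.54) or without E9.5 WT C and D (−0.78), nor in null libraries without E8.5 null B (−0.41).

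Dnmt3a, the de novo enzyme that stays on in somatic cells, took another course. Its WT libraries stood at 40.3 and 55.5 CPM at E7.5 and at 40.0 and 34.7 CPM in E8.5 embryos, and E9.5 gave 68.7, 65.9, 69.0 and 62.2 CPM. All 4 E9.5 libraries lay above all of the earlier ones, and the rise from E8.5 was +0.57 ± 0.12 (adjusted p 0.0018). The null libraries rose by +0.61 ± 0.12 over the same step, after a fall of −0.46 ± 0.13 from E7.5 to E8.5 (adjusted p 0.0146), where WT libraries stood at −0.20 ± 0.13, not called. This E7.5 to E8.5 direction reversed when the 2 cell types shared by all libraries of both stages were given equal weight (+0.80 in WT and +0.72 in null, limma adjusted p 0.00529 and 0.0399), and it is taken up with the cell types.

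The dioxygenases moved apart. Tet1, the form of pluripotent cells, stood at 55.0 and 64.6 CPM at E7.5 and 25.3 and 28.8 at E8.5 in WT libraries, and then at 26.7, 29.0, 27.8 and 28.8 at E9.5. It fell by 0.98 on the log2 scale between E7.5 and E8.5 (SE 0.10, adjusted p 9.66e-06) with no overlap. The step to E9.5 was −0.21 ± 0.089 and not called (adjusted p 0.0753), but it was called with RLE factors, by DESeq2, at equal weight of cell types and without blood and extra-embryonic labels (−0.24, −0.24, −0.28 and −0.43). Tet2, a form well known in blood and heart, went the other way, from 5.23 and 5.08 CPM to 8.16 and 6.79 and then to 17.4, 18.0, 19 and 14.6. Both of its steps rose, by +0.71 ± 0.16 (adjusted p 0.00291) and +0.94 ± 0.14 (adjusted p 0.000159), and the 3 stages did not overlap. Tet3 stood at 38.7 and 28.7 CPM, then 35.8 and 36.5 CPM, and then 56.2, 56.2, 56.2 and 50.001 CPM, and rose at the second step by +0.34 ± 0.12 (adjusted p 0.0391). That call was close to the threshold and was lost in 8 alternatives, such as another scaling (RLE, +0.30) and each single loss of an E8.5 WT library.

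Zfp57, the zinc finger that guards imprints, was lowest at E8.5. It stood at 13.7 and 12.5 CPM in E7.5 WT libraries, 8.22 and 7.10 at E8.5, and then 18.5, 17.2, 24.4 and 18.8 at E9.5, with no overlap between stages. The fall was −0.60 ± 0.16 (adjusted p 0.00734) and the rise +1.10 ± 0.14 (adjusted p 6.80e-05). In null libraries the steps were −0.67 ± 0.16 and +0.92 ± 0.14, both called. Trim28, its partner, fell by 0.33 on the log2 scale in null libraries at the first step (SE 0.11, adjusted p 0.0243), with −0.18 ± 0.11 in WT. With cell types at equal weight the first step of Zfp57 turned to +0.17 in WT and +0.0195 in null libraries, neither called.

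In all, 5 of the 10 members were called between E7.5 and E8.5 in WT libraries, against 44.8% of all 15567 genes tested, and 5 between E8.5 and E9.5, against 40.4%. In null libraries 7 were called at the first step (background 40.8%) and 5 at the second (40.3%). The first 7 were Dnmt3a, Dnmt3b, Zfp57 and Trim28, given above, with Tet1 (−0.88 ± 0.10), Tet2 (+0.83 ± 0.16) and Dnmt3l (−1.19 ± 0.43, edgeR adjusted p 0.0376). The second 5 were Dnmt3a, Dnmt3b and Zfp57 with Tet2 (+0.77 ± 0.14) and Tet3 (+0.34 ± 0.12), while Tet1 (−0.23 ± 0.089) and Dnmt3l (−0.65 ± 0.39) were not called. The counts of 5 are near the background shares, and the 7 of 10 in the null first step are above theirs, with no test of either. A call in null beside none in WT is not a difference between the genotypes. The direct test of that difference, given below, flagged Dnmt3l alone among the members. All members share these libraries with every other gene. In a sum over a whole library fewer cells of a type and less RNA per cell cannot be told apart.

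**Figure D1:**
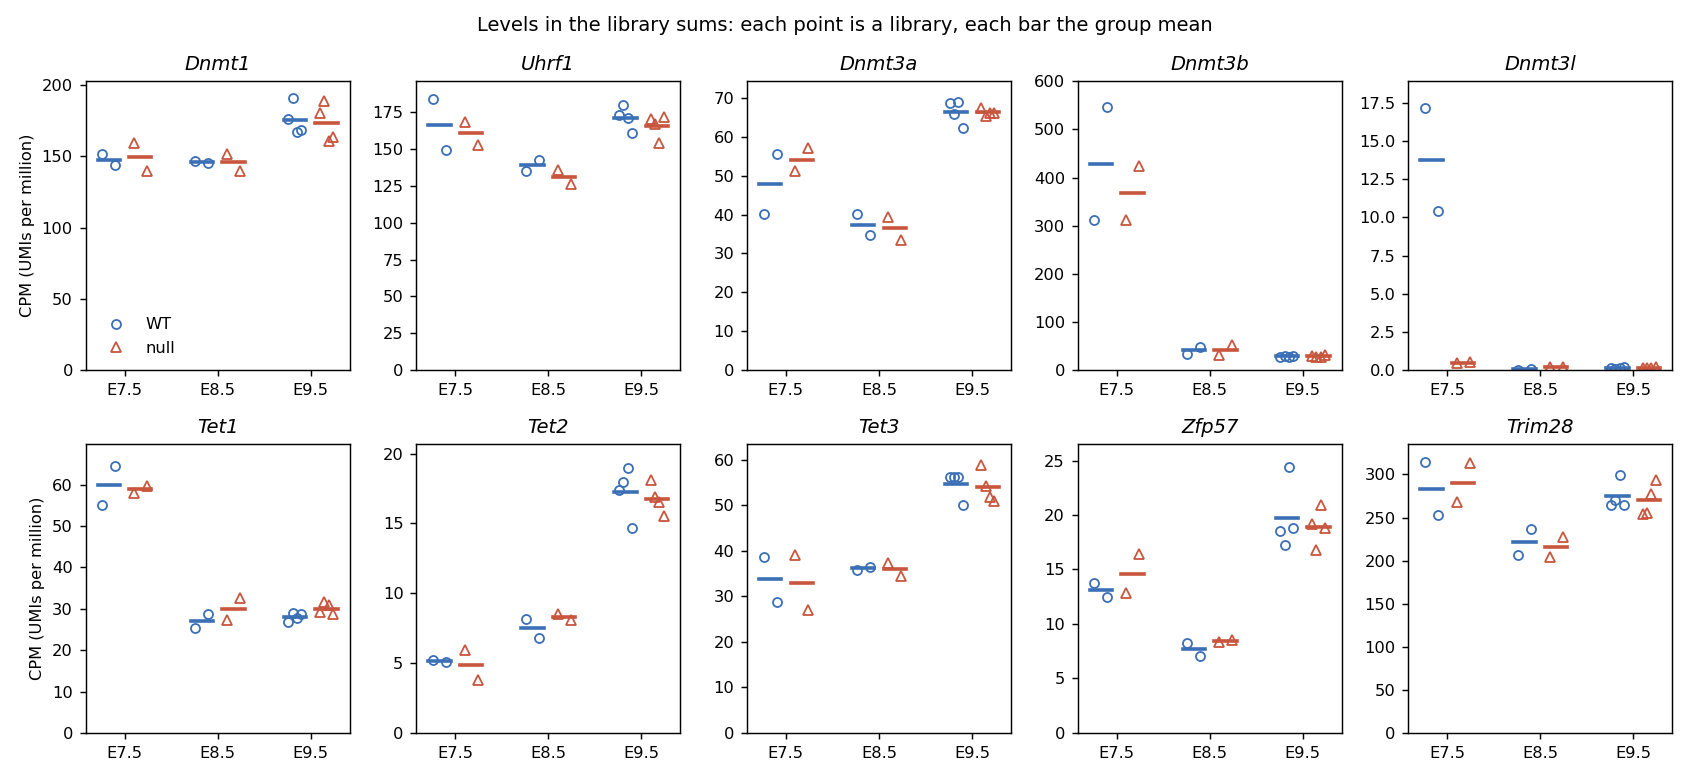
Level of each member in CPM (counts per 1000000 UMIs, linear axes from 0) by stage, with WT libraries as blue circles, null libraries as red triangles and a bar for each group mean. Dnmt3b and Dnmt3l are lower after E7.5, Tet2 climbs at each stage and Zfp57 is lowest at E8.5. At E9.5 null and WT points overlap for every member.

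The question of the genotype is whether losing Stat3 moved these genes. In library sums 0 of the 10 members were called at E8.5 (background 0.212% of genes, with 819 genes at an unadjusted p under 0.05) and 0 at E9.5 (background 1.35%, of which 0.456% higher and 0.893% lower, with 1412 genes at an unadjusted p under 0.05). At E9.5, where 4 libraries stood on each side, the difference of the members other than Dnmt3l lay between −0.06 ± 0.11 for Zfp57 and +0.10 ± 0.073 for Tet1. Null and WT libraries overlapped for all 10 members at E9.5, and for all but Dnmt3l at E7.5 and all but Dnmt3l and Zfp57 at E8.5, where Zfp57 stood at 8.35 and 8.57 CPM in null and 8.22 and 7.10 CPM in WT libraries. With 2 against 2 libraries a share of 0.333 of the label arrangements gives no overlap. The share of all genes without overlap is not given, so at E7.5 and E8.5 these gaps are a description only. At E7.5 the difference lay between −0.18 ± 0.27 for Dnmt3b and +0.21 ± 0.13 for Dnmt3a. Over the average of the stages 0 of 10 members were called against 4.75% of genes (1.67% higher and 3.08% lower in null, edgeR, 2918 genes at an unadjusted p under 0.05), although DESeq2 called Dnmt3l.

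An exact two-sided permutation of genotype labels within stages, on log2(CPM + 1), gave no member a p under 0.05 (2520 arrangements, smallest possible p 0.000794). Its lowest were Tet1 at +0.07 (exact p 0.280) and Uhrf1 at −0.06 (exact p 0.293). Without E7.5 WT B these became +0.11 (exact permutation p 0.0429) and −0.11 (exact permutation p 0.0437), so that 1 library decided on which side of 0.05 they fell. Within E9.5 alone the lowest exact permutation p was 0.0857, for Tet1 at +0.09, where 4 against 4 libraries cannot go below 0.0286. With 2 against 2 libraries a stage alone cannot go below 0.333.

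At E7.5 the 1 member called of 10 was Dnmt3l, the catalytically inactive cofactor, where 5.34% of all genes were called (1.05% higher and 4.28% lower). It stood at 17.2 and 10.4 CPM in WT libraries and 0.476 and 0.532 CPM in null libraries, a difference of −4.74 ± 0.38 (edgeR adjusted p 1.09e-05). At E8.5 it stood at 0.0362 and 0.0802 CPM in WT and 0.194 and 0.211 CPM in null libraries, on 3 to 22 UMIs per library. At E9.5 it lay between 0.0670 and 0.203 CPM in all 8 libraries, on 5 to 23 UMIs. The null effect at E8.5 differed from that at E7.5 by +6.50 ± 0.63 (adjusted p 0.000207, background 1.41% of genes, 1.34% higher and 0.0707% lower), and the one at E9.5 by +4.88 ± 0.48 (adjusted p 0.000175, background 1.9%, 1.77% higher and 0.122% lower).

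These Dnmt3l transcripts came mostly from extra-embryonic (ExE) ectoderm, the trophoblast tissue next to the epiblast. ExE ectoderm made up 15.8% and 9.37% of the E7.5 WT cells and held 86.0% of their Dnmt3l UMIs. The null libraries held 2 such cells in A and 0 among the 360 cells of B. No E8.5 library held such a cell, and at E9.5 only WT A did, with 9. The stages therefore differ in whether this tissue was sampled. Within ExE ectoderm, Dnmt3l stood at 84.5 CPM in WT A (428 UMIs in 114 cells) and 80.2 CPM in WT B (458 UMIs in 167 cells), and the 2 null cells gave 3 UMIs. The rule for a test within a cell type could not be met there, so a genotype difference in ExE ectoderm was not measured.

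Outside ExE ectoderm Dnmt3l was low everywhere at E7.5, at 1.72 and 2.18 CPM in WT against 0.443 and 0.532 CPM in null libraries. Without blood and extra-embryonic labels the E7.5 difference was −1.96 and still called (adjusted p 0.0367), while the differences from E8.5 and E9.5 shrank to 3.63 and 2.41 and were no longer called (adjusted p 0.287 and 0.252). Of 5 markers of ExE ectoderm, 2 were lower in the null than in the WT cells outside that label. Elf5 gave 0.859 and 1.54 CPM in the WT cells outside ExE ectoderm and 0.0997 and 0.0483 CPM in the null cells. In the same cells Rhox9 stood at 0.859 and 0.247 CPM in WT and 0.0554 and 0.0483 CPM in null libraries. Cdx2 and Eomes overlapped between the genotypes and Tfap2c stood at 4.30 and 4.39 CPM in WT and 5.49 and 5.27 CPM in null libraries. The 5 markers summed to 107 to 123 CPM in WT and 111 to 119 CPM in null libraries, none of them at 0. Most of that sum was Cdx2 (112 and 58.7 CPM in WT, 101 and 66.4 CPM in null) and, in the B libraries, Eomes (42.2 and 46.9 CPM). The sum therefore cannot show a difference in markers as low as Elf5 and Rhox9. Relative to its level in ExE ectoderm, Dnmt3l outside it was 2.03% and 2.72% in the WT libraries, where Elf5 was 0.38% and 0.59%, Rhox9 2.44% and 0.81%, Tfap2c 2.78% and 3.66%, Eomes 2.89% and 22.7%, and Cdx2 96.7% and 56.3%. The part of ExE ectoderm RNA in these cells in the Dnmt3l difference was not tested.

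**Figure D2:**
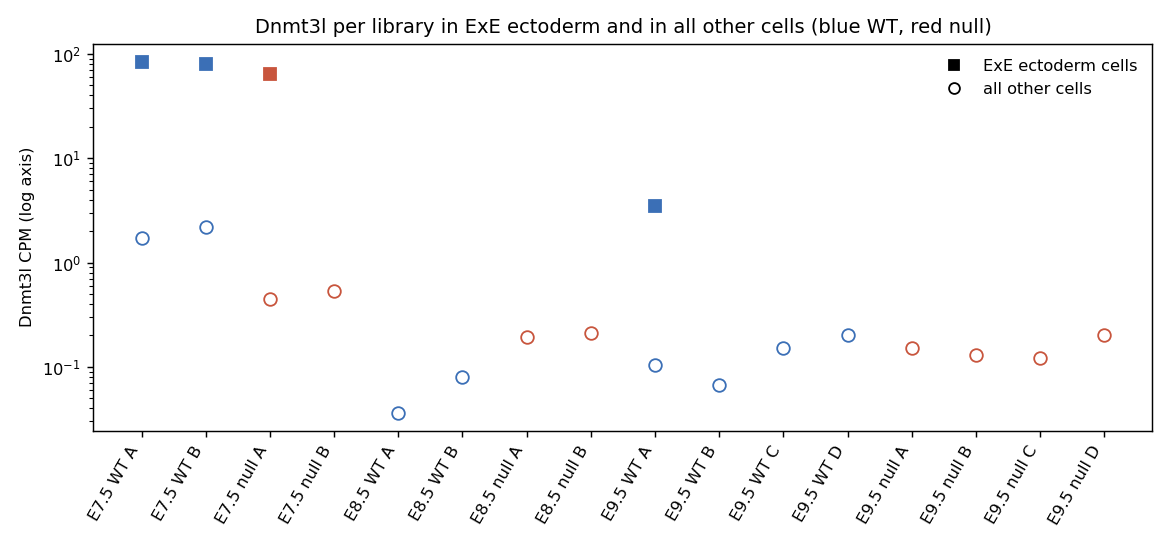
Dnmt3l in CPM on a log axis, per library, in ExE ectoderm cells (filled squares, drawn where a library holds any) and in all other cells (open circles), with WT in blue and null in red. ExE ectoderm stands near 80 CPM in the E7.5 WT libraries, the null square rests on 2 cells, the E9.5 square on 9 cells, and all other cells stay near or below 2 CPM.

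Few Dnmt3l UMIs were counted after E7.5, in libraries with few or no ExE ectoderm cells, and they were not spread evenly. Sclerotome, the axial skeleton precursor, held 18 of the 51 UMIs at E9.5 in WT libraries (35.3%) with 6.82% of their cells, and 24 of 56 in null libraries (42.9%) with 7.07% of their cells. Parietal endoderm held 11 of the WT UMIs in 24 cells. These are counts of single UMIs, and labels were themselves drawn from expression, so they are given with no test.

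Within cell types the comparison of genotypes took each type that had over 15 cells in 2 or more libraries on both sides, tested one by one on counts summed per library. Of 7 types at E7.5, 20 at E8.5 and 37 at E9.5, 0 gave a call for any member, where 0.247%, 0.0929% and 0.271% of all gene and type tests were called (edgeR), with 0.0509% higher and 0.042% lower at E8.5. Dnmt3b had a negative value in null cells in all 7 types at E7.5, with a median of −0.24 and 2 types at an unadjusted p under 0.05. At E8.5 it was negative in 11 of 20 types and at E9.5 in 20 of 37, a mixed direction. At E9.5 Trim28 was negative in 29 of 37 types, Uhrf1 in 28, Dnmt1 in 24 and Tet3 in 21. Zfp57 was negative in 24 of 35 and Tet2 in 22 of 34, while Tet1 was positive in 23 of 37. At E8.5 Dnmt1, Uhrf1 and Trim28 were each negative in 16 of 20 types, and Tet2 positive in 12 of 16. The types of a stage come from the same libraries, and these leanings were not tested. At E9.5 the values ran from −0.96 to +0.85 over types for Zfp57, from −0.65 to +0.56 for Dnmt3b, from −0.30 to +0.58 for Dnmt3a and from −0.60 to +0.16 for Uhrf1. Dnmt3l passed the filter on low counts in none of these types. With no such filter it was called lower in null cells of Lateral plate mesoderm at E7.5 (−3.70 ± 0.91, adjusted p 0.0180) and, on 1 WT library with the spread taken from the null ones, also without E7.5 WT A (−3.93). It was not tested there with the filter and all libraries.

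Between stages members were also called within the types themselves. From E8.5 to E9.5, 31 types could be compared in WT cells, where 9.64% of all gene and type tests were called, 4.48% higher and 5.16% lower at E9.5. Dnmt3b was lower in 30 of 31 types (median −0.70) and called in 12, among them Ventral hindbrain progenitors, where 34.0 and 37.0 CPM at E8.5 gave way to 17.7 to 23.4 CPM in the 4 E9.5 libraries. That change was −0.97 ± 0.15 (adjusted p 4.58e-05), and Branchial arch neural crest fell by −0.88 ± 0.14 (adjusted p 8.18e-05). Erythroid cells gave −1.29 ± 0.32 (adjusted p 0.0112), but their libraries differed at E8.5 (8.12 CPM in WT A and 17.3 in WT B with haemoglobin left out), and the stages overlapped, since E9.5 WT B held 8.40 CPM.

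Zfp57 was tested in 26 of the 31 types, was higher at E9.5 in all 26 (median +0.96) and was called in 12. The other types failed the filter on low counts, which a type can pass through its E9.5 libraries alone. All types come from the same libraries, so 26 of 26 is no count of independent results. In Optic vesicle it stood at 3.68 and 4.32 CPM at E8.5 and 12.1 to 20.7 CPM at E9.5, a rise of +1.80 ± 0.27 (adjusted p 4.42e-05). In Sclerotome it stood at 10.0 and 12.5 CPM and then at 19.6 to 26.5 CPM (+1.00 ± 0.24, adjusted p 0.0125). Surface ectoderm showed the greatest called rise, +2.07 ± 0.54, on 6 UMIs at E8.5 and 54 at E9.5 (adjusted p 0.0265). The calls took in neural, neural crest, mesodermal, endodermal and ectodermal labels.

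Tet1 was lower in 30 of 31 types and called in 6, with Migratory neural crest from 37.8 and 38.6 CPM to 20.7 to 24.3 CPM (−0.93 ± 0.15, adjusted p 0.000432). Tet2 was higher in 25 of the 28 types tested and called in 6, all of them neural or neural crest labels. As for Zfp57, a type can pass the filter on low counts through its E9.5 libraries alone, and types share libraries. In Dorsal spinal cord progenitors Tet2 went from 3.56 and 4.67 CPM to 11.1 to 15.9 CPM (+1.55 ± 0.29, edgeR adjusted p 0.000522). Dnmt3a was higher in 27 of 31 types and called in 6, with Allantois from 43.9 and 46.2 CPM to 97.7 to 129.8 CPM in 3 libraries (+1.16 ± 0.19, adjusted p 0.00774). Dnmt1, Uhrf1, Tet3 and Trim28 were called in 0 of 31 types, with medians of +0.05, +0.09, +0.16 and −0.07. Most of these 42 calls were lost without E8.5 WT B, where 1 E8.5 library was left. Without E9.5 WT C and D, where 41 of the 42 could be tested, none reversed, 7 were no longer called and 10 others were called.

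The null libraries, which come from the same embryos but hold other cells, gave their own values over 19 types (background 7.88%, 3.65% higher and 4.23% lower). Dnmt3b was lower in 19 of 19 and called in 8, and Zfp57 was higher in 19 of 19 and called in 8. The limit of the filter on low counts given for WT cells holds here too. Dnmt3a was called higher in 5 types, Tet2 in 3 of 16, and Tet1 lower in 4. Tet3 was called in Amniotic ectoderm (+0.74 ± 0.21, adjusted p 0.0438) and Uhrf1 in Hindbrain floor plate (+0.45 ± 0.13, adjusted p 0.0491). Dnmt1 and Trim28 were called in 0 of 19 types, with medians of +0.02 and −0.01, and Dnmt3l could be tested in Sclerotome alone (−1.47 ± 0.64, adjusted p 0.192).

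**Figure D3:**
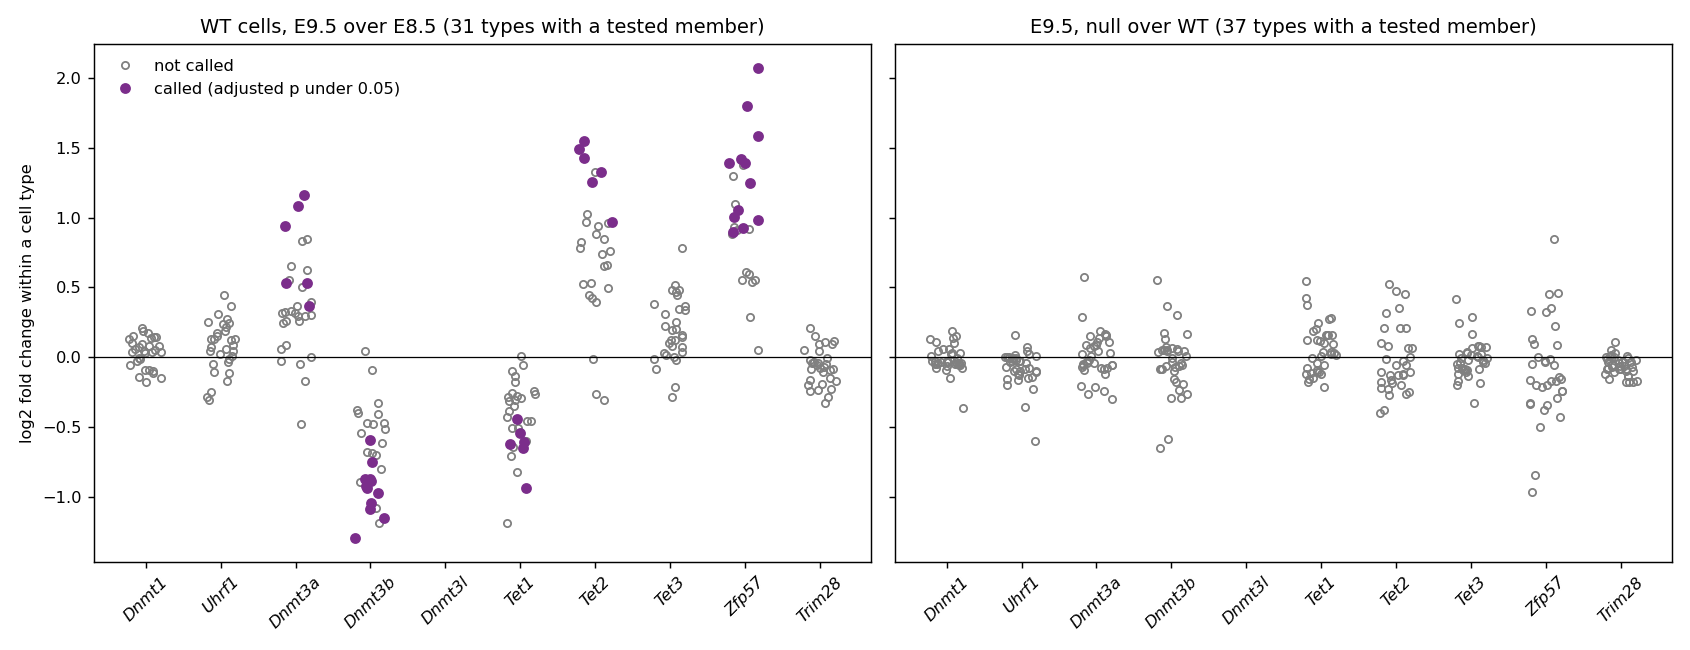
Log2 fold change of each member within a cell type, 1 point per type, for WT cells at E9.5 over E8.5 (left, 31 types) and for null over WT cells at E9.5 (right, 37 types), with filled points at an adjusted p under 0.05. On the left Dnmt3b and Tet1 lie below 0 in 30 of 31 types each. Zfp57 lies above it in 26 of 26 types tested, Tet2 in 25 of 28 and Dnmt3a in 27 of 31. A type can pass the filter on low counts through its E9.5 libraries alone. On the right none is called, with Trim28 below 0 in 29 of 37 types, Uhrf1 in 28 of 37 and Tet1 above it in 23 of 37. Dnmt3l has no point because it was not tested.

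From E7.5 to E8.5 only Lateral plate mesoderm and Mesenchyme held enough cells for the same test. There 19.5% of gene and type tests were called in WT cells (10.8% higher, 8.65% lower) and 12% in null cells (7.16% higher, 4.86% lower). Dnmt3a rose in both types, by +0.72 ± 0.20 (adjusted p 0.0141) and +1.00 ± 0.21 (adjusted p 0.00319) in WT cells, and by +0.81 and +0.85 in null cells, all 4 called. In WT Mesenchyme it stood at 15.4 and 20.7 CPM at E7.5 and 34.1 and 36.0 CPM at E8.5. This is the opposite sign to the library sums, in which Dnmt3a did not rise, and at E7.5 the sums also hold Ectoderm and Caudal epiblast, where Dnmt3a stood at 80.9 and 81.7 CPM against a median over types of 31.0 CPM. The part of these labels in the opposite signs was not tested. Dnmt3b fell in both types, by −2.43 ± 0.18 and −2.12 ± 0.27 in WT (adjusted p 6.65e-08 and 0.00149), from 114 and 152 CPM to 20.2 and 27.2 CPM in Lateral plate mesoderm. In WT Mesenchyme Tet1 fell by −0.98 ± 0.26 (adjusted p 0.0271) and Tet2 rose by +1.12 ± 0.36 (adjusted p 0.0407), while null Mesenchyme gave −0.49 (adjusted p 0.126) and +0.45 (adjusted p 0.443), neither called. The difference between the genotypes in these steps was not tested. Zfp57 stood at +0.37 in Lateral plate mesoderm and +0.17 in Mesenchyme in WT cells, uncalled, beside its fall in the library sums.

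Across cell types of 1 stage the levels are given as a description, because the labels were drawn from expression, and only types with over 15 cells in 2 or more WT libraries are ordered. Dnmt3b at E7.5 stood at 1034 ± 302 CPM in WT Ectoderm (SD, n = 2 libraries), 586 ± 90.04 in Caudal epiblast, 434 ± 6.78 in ExE ectoderm and 109 ± 41.6 in Mesenchyme. The Epiblast label, held mostly by WT B (125 cells, against 9 in WT A), gave 1758 CPM when summed over both, and 43 null Epiblast cells gave 1575 CPM. At E8.5 erythro-myeloid progenitors (EMP) led with 255 ± 22.1 CPM, apart from Placodal ectoderm at 164 ± 37.6 CPM, and EMP led again at E9.5 with 121 ± 33.8 CPM (n = 4), overlapping Placodal ectoderm at 96.6 ± 24.9 CPM. Erythroid cells were lowest at both stages, at 10.6 ± 6.11 and 3.99 ± 1.01 CPM, a range of 24.1-fold and 30.3-fold across types. Within this order few neighbours differed: the libraries of adjacent types did not overlap in 4 of 35 pairs at E8.5 and in 1 of 39 at E9.5.

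Dnmt3a was ordered otherwise. At E7.5 Caudal epiblast (81.7 ± 5.61 CPM) and Ectoderm (80.9 ± 11.5 CPM) were high, below the unordered Epiblast label (138 CPM), and ExE ectoderm lowest (11.9 ± 2.45 CPM), a type in which Dnmt3b stood at 434 CPM. At E9.5 Megakaryocyte progenitors (138 ± 11 CPM, n = 2), Epicardium (137 ± 21.5 CPM) and first heart field progenitors (Cardiopharyngeal progenitors FHF, 123 ± 11.2 CPM) led without a gap between them, and Erythroid cells held 6.45 ± 1.41 CPM.

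Among the types ordered here Tet1 was highest in Ectoderm at E7.5 (96.7 ± 9.87 CPM), with the Epiblast label, not ordered, at 109.7 CPM, and in Surface ectoderm at E8.5 (54.1 ± 1.56 CPM) and E9.5 (48.0 ± 7.34 CPM, n = 3). Surface ectoderm overlapped the next type for Tet1, Limb ectoderm at E8.5 and Thyroid primordium at E9.5. Tet2 was highest in first heart field progenitors at E8.5 (25 ± 0.26 CPM) and E9.5 (40.3 ± 4.37 CPM, n = 4). Both of these leads overlapped the next type, EMP at E8.5 (10.2 to 33.2 CPM) and Dorsal midbrain neurons at E9.5 (23.7 to 38.1 CPM). Tet3 was highest in Dorsal midbrain neurons at E9.5 (85.6 ± 6.68 CPM, n = 4), overlapping Thyroid primordium. Zfp57 led in Intermediate mesoderm at E7.5 (30.9 ± 0.69 CPM), in Venous endothelium at E8.5 (33.5 ± 0.26 CPM) and in Pharyngeal mesoderm at E9.5 (41.5 ± 15.9 CPM, n = 4). Its E7.5 and E8.5 leaders did not overlap the next type ordered. Nascent mesoderm, not ordered in E7.5 WT, held 148 Zfp57 UMIs in 182 cells, against 130 in 134 cells of Intermediate mesoderm. In null libraries, where both were ordered, they overlapped (21.6 to 35.8 and 27.0 to 37.7 CPM).

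Dnmt1, Uhrf1 and Trim28 spanned little, with 1.52-fold to 3.84-fold between the highest and the lowest type. Their lowest type was Visceral endoderm at E7.5, where Uhrf1 stood at 75.8 ± 18.9 CPM against a median over types of 169.6 CPM. At E8.5 and E9.5 the lowest type of every member but Dnmt3l, and but Tet2 at E8.5, was Erythroid, where haemoglobin took 13.8% to 35.1% of WT UMIs. With haemoglobin left out of the total, WT Erythroid cells still held 8.12 and 17.3 CPM of Dnmt3b at E8.5 and 4.68 to 8.40 CPM at E9.5, and 0.887 and 0.639 CPM of Zfp57 at E8.5. Dnmt1 kept 105 to 128 CPM there over the 6 libraries.

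**Figure D4:**
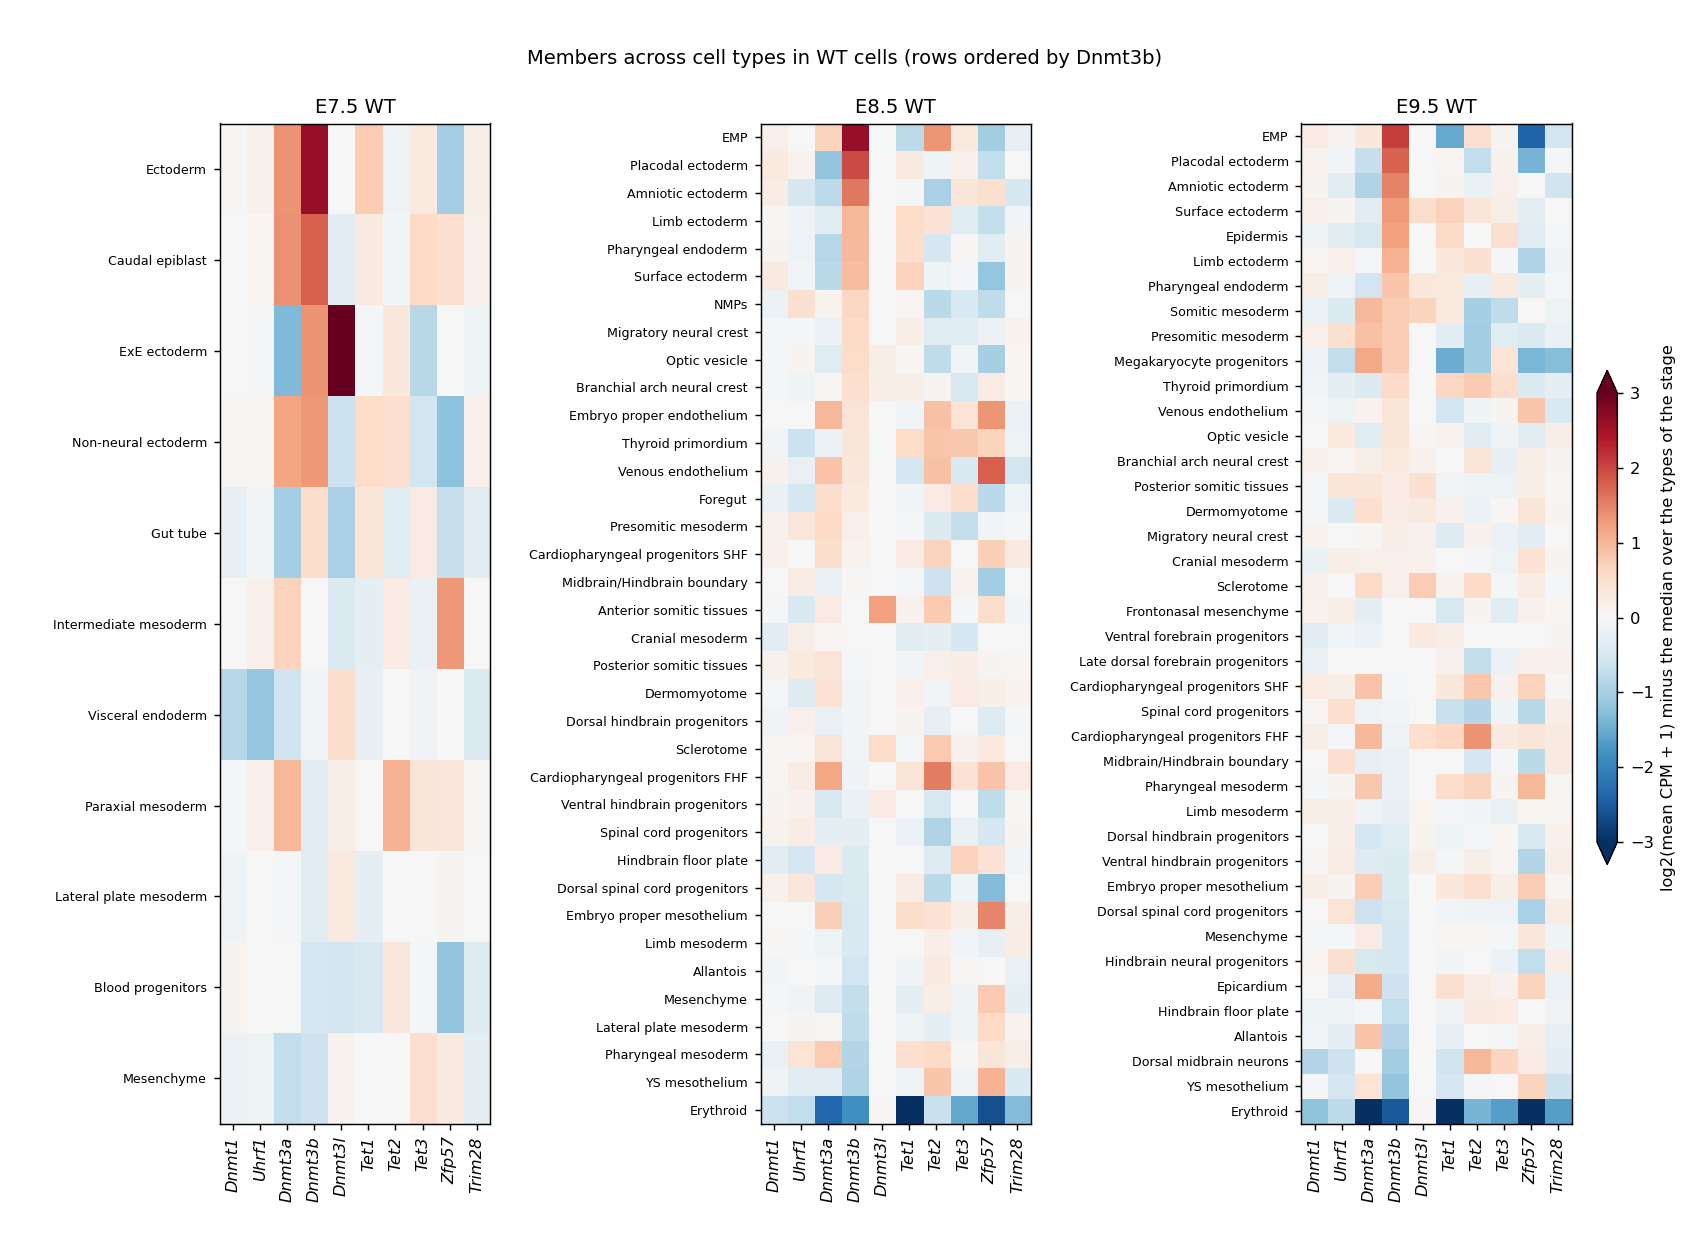
Members by cell type in WT cells at each stage, as log2(mean CPM + 1) minus the median over the types of the stage, with red above and blue below the median and types ordered from the highest Dnmt3b downward. Dnmt3b leads in Ectoderm at E7.5 and in EMP and ectodermal labels later, Dnmt3l stands out in ExE ectoderm at E7.5, and Erythroid is blue for nearly all members.

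Over 87 stage and cell type sums of WT cells, the genes closest to each member among 9463 were taken by Pearson's r of log2(CPM + 1), as a description of sums that share libraries and depth. Uhrf1 was closest to Rpa2 (r = 0.84), a subunit of the single-strand binding protein of replication, and Clspn (0.83), a replication checkpoint adaptor, and then to Srsf2 (0.82). Dnmt3b was closest to B3gnt7 (0.81), Naf1 (0.80) and Utf1 (0.79), the last a transcription factor of pluripotent cells. Tet1 was closest to Prrc2c (0.85), the histone demethylase gene Kdm5b (0.85) and Smarcd1 (0.83), and Trim28 to Zfp428 (0.89), Sumo2 (0.89) and Hnrnpab (0.88). The other members reached 0.74 (Dnmt1 with Hnrnpd), 0.76 (Dnmt3a with Limd2), 0.78 (Dnmt3l with Trap1a), 0.80 (Tet2 with Filip1l), 0.80 (Tet3 with Wdfy3) and 0.77 (Zfp57 with Syde1). Among the members themselves the closest pairs were Tet1 with Trim28 (r = 0.72) and Uhrf1 with Trim28 (0.64), while Dnmt1 with Uhrf1 gave 0.54 and Dnmt3b with Tet2 −0.41.

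Primordial germ cells (PGCs), which erase methylation genome-wide as they migrate, are described from few cells. At E9.5 there were 21 PGCs in 6 of the 8 libraries, so the values are counts with exact Poisson 95% intervals that cover counting error only. Uhrf1 gave 15 UMIs or 19.6 CPM (11 to 32.4), against 161 to 180.2 CPM in the other cells of the same libraries, and was lower in 6 of 6 libraries. In the single libraries it stood at 39.2 CPM in WT A (6 cells), 0 in WT B (1 cell), 11 in WT D (8 cells), 23.3 in null A (4 cells), 22.3 in null B (1 cell) and 0 in null D (1 cell). Tet1 gave 89.1 CPM (69.2 to 113) against 26.7 to 31.5 CPM, higher in 6 of 6 libraries.

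At E9.5 Dnmt1 stood at 155 CPM (128 to 185) in PGCs against 164 to 191 CPM in other cells, lower in 5 of 6 libraries. Zfp57 gave 2 UMIs, 2.62 CPM (0.317 to 9.46), against 16.8 to 19.2 CPM, lower in 6 of 6 libraries, and Tet3 gave 22.3 CPM (13 to 35.7) against 50.1 to 58.9 CPM. Dnmt3a gave 40.6 CPM (27.6 to 57.6) against 62.3 to 68.8 CPM, and Trim28 345 CPM (304 to 389) against 254 to 294 CPM. Dnmt3l gave 0 UMIs, with an exact Poisson upper limit of 4.83 CPM (3 counts would be 3.93 CPM). At E7.5, 16 PGCs gave 88.5 CPM of Uhrf1 (66.1 to 116) against 149 to 184 CPM in other cells and 90.2 CPM of Tet1 (67.6 to 118) against 54.9 to 64.5 CPM. Dnmt1 at E7.5 gave 107 CPM (82.4 to 137) against 139.8 to 159.8 CPM, lower in 4 of 4 libraries as Uhrf1 was, and Dnmt3b gave 157 CPM (126 to 192) against 312 to 547 CPM. At E8.5, 5 PGCs gave 1 UMI of Uhrf1, 9.0 CPM (0.228 to 50.1), against 135 to 142 CPM. There Dnmt1 gave 198 CPM (124 to 299.8) against 145 to 152 CPM, higher in 3 of 3 libraries, and Tet1 54.0 CPM (19.8 to 118) against 25.3 to 28.8 CPM. Trim28 gave 35 UMIs, Dnmt3a 3, and the other members 0 at that stage. The label rests on mapping by expression, so no test is given between PGCs and other cells, and null and WT PGCs were too few to compare.

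**Figure D5:**
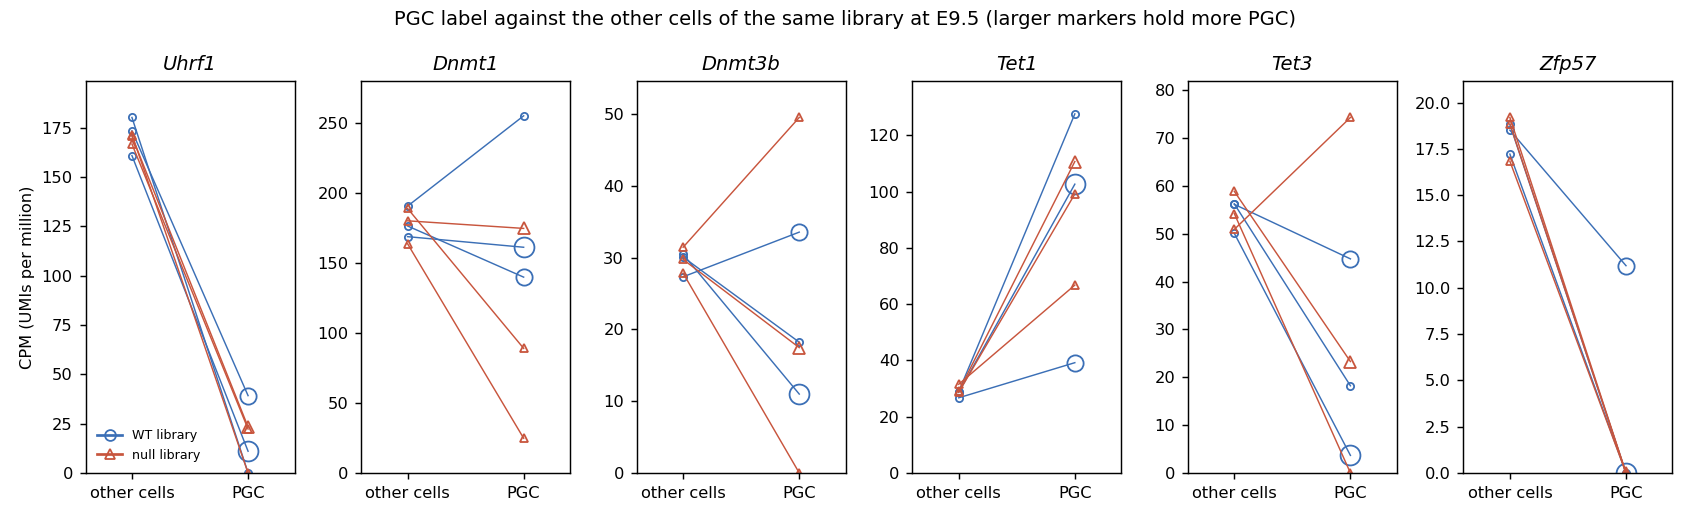
Level in CPM (linear axes from 0) of 6 members in PGCs and in the other cells of the same E9.5 library, 1 line per library, WT in blue circles and null in red triangles, with larger markers for more PGCs. Uhrf1 drops and Tet1 climbs in each of the 6 libraries, Zfp57 drops in each, and Dnmt1 does so in 5 of 6.

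Other genes of the pathway were taken in lists. Of 32 methylation and hydroxymethylation partners tested, 0 were called between genotypes at E8.5 and at E9.5 in library sums and 1 at E7.5, Gadd45b, a stress gene tied to demethylation (−1.25 ± 0.21, edgeR adjusted p 0.00239, background 5.34%). Gadd45b stood at 32.3 and 21.8 CPM in WT and 10.7 and 11.2 CPM in null libraries. Of 15 KAP1 and H3K9 methylation partners, Cbx3 (+0.35) was called higher and Atrx (−0.31) lower at E7.5, and 0 at the later stages. Within types at E7.5, 0 of 204 tests of the methylation partners and 0 of 105 of the KAP1 partners were called. The ExE ectoderm share moved with these library sums, and its part in the 3 calls at E7.5 was not otherwise tested. Over the average of stages 1 methylation partner, Mbd2, and 1 KAP1 partner, Atrx, were called lower in null (background 4.75%, 3.08% lower). Mbd2 stood at 45.6 to 49.5 CPM in null and 53.1 to 60.2 CPM in WT libraries at E9.5. Without E8.5 null B the averaged differences were −0.16 for Mbd2 and −0.12 for Atrx. The 1 call of these lists within types at the later stages was Cxxc4, lower in Pharyngeal mesoderm at E9.5 (−1.41, adjusted p 0.0369). Of 25 genes of DNA replication, 0 were called between genotypes at any stage. The medians of these 3 lists lay between −0.07 and +0.09 in each stage, beside 0.00 to 0.01 over all genes.

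Of 21 germline genes that promoter methylation silences in somatic cells, 5 were lower in null libraries at E7.5 and 0 higher, where 5.34% of all genes were called and 4.28% were lower (median −2.77, against 0.01 over all genes). Rhox5, a homeobox gene that trophoblast also expresses, stood at 343 and 225 CPM in WT and 3.55 and 1.26 CPM in null libraries. It was also called within 5 of the E7.5 types, Caudal epiblast, Ectoderm, Intermediate mesoderm, Mesenchyme and Paraxial mesoderm, by −2.68 to −5.45. At E8.5 and E9.5 Rhox5 overlapped between the genotypes, at 6.04 to 13.6 and 1.20 to 14.4 CPM. Other genes of the list lay near 0 at E7.5. Mov10l1 stood at 1.66 and 1.79 CPM in WT and 0.0553 and 0.0483 CPM in null libraries. Piwil2 stood at 0.810 and 0.682 CPM in WT and 0.0996 and 0.0483 CPM in null libraries. The median of the list thus rests in part on counts near 0, and the list also holds Rhox9, used above as a marker of ExE ectoderm. The ExE ectoderm share given for Dnmt3l moved with these genes, and its part was not tested. In library sums 0 of the 21 were called at E8.5 (background 0.212%, median −0.66). At E9.5 1 was called, lower in null (background 1.35%, 0.893% lower, median −0.78). Over the average of stages 6 were called lower and 0 higher (background 4.75%, 3.08% lower, median −1.45). Within types 0 of 34 tests at E8.5 and 0 of 60 at E9.5 were called (background 0.0929% and 0.271%).

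Of 42 imprinted genes governed by germline methylation marks, 8 were called between genotypes at E7.5 (4 higher, 4 lower, background 5.34%), 2 at E8.5 (both higher, background 0.212%) and 6 at E9.5 (4 higher, 2 lower, background 1.35%). Earlier results of these data were known when this list was chosen, so the counts are a description only. Grb10, a growth inhibitor, stood at 211 and 193 CPM in E7.5 WT and 7.42 and 4.88 CPM in null libraries, and at 352 to 373 CPM and 9.82 to 22.4 CPM at E9.5. At E8.5 it stood at 267 and 266 CPM in WT, 12.6 CPM in null A and 262 CPM in null B, so null B lay at the WT level. Stat3 in that same null B library was 1.54 CPM, within the null range, and 72.3% of its cells held a tdTomato UMI, the lowest share of the null libraries. Without E8.5 null B the E8.5 difference of Grb10 was −4.41 ± 0.50 and called (adjusted p 0.00621).

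H19, a growth-restraining RNA expressed from the maternal copy, split differently. It stood at 601 and 427 CPM in E7.5 WT and 41.9 and 37.0 CPM in null libraries, and at 476 to 733 CPM and 14.3 to 113 CPM at E9.5. At E8.5 it stood at 541 and 461 CPM in WT, 246 CPM in null A and 22.6 CPM in null B, so here null A was the nearer to WT. Igf2, its neighbour on the paternal copy, was higher in null libraries at E7.5 (+0.92 ± 0.19, adjusted p 0.0138) and E9.5 (+0.84 ± 0.13, adjusted p 0.00731).

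Zdbf2 and Nap1l5, both paternally expressed, were higher in null libraries at all 3 stages without overlap, Zdbf2 by +1.14, +0.95 and +1.06 and Nap1l5 by +1.45, +1.23 and +0.95, all called. Without E8.5 null B the E8.5 value of Nap1l5 was +1.22 and no longer called (adjusted p 0.0561), while Zdbf2 was still called (+1.07, adjusted p 0.00354). In both E8.5 null libraries Zdbf2 was at the null level, 97.8 and 83.5 CPM against 45.2 and 47.2 CPM in WT, including null B, where Grb10 was not. Within cell types imprinted genes were called in 8.44% of gene and type tests at E7.5, 2.11% at E8.5 and 9.44% at E9.5, beside 0.247%, 0.0929% and 0.271% of all tests. The list was chosen with earlier results of these data known, so these shares are a description and no independent result. Of the 7, 20 and 37 types compared at the successive stages, Grb10 was called lower in 7, 0 and 30, Zdbf2 higher in 3, 8 and 32, and Igf2 higher in 4, 2 and 19. The 1 lower call at E8.5 was H19. Zfp57, Trim28, Dnmt1 and Uhrf1 had 0 calls in the same types, which does not measure absence of a change. A link between the levels of these 4 genes and the imprinted genes was not tested.

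Imprinted genes also moved between stages within WT types, 178 tests higher and 67 lower of 1038 from E8.5 to E9.5 (23.6%, against 9.64% of all tests), over 33 genes. The methylation partners (10.4%), the KAP1 partners (4.3%) and the replication genes (6.86%) were near or below that background over the same step.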

How the data were processed

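Single-cell 3' libraries of sorted null and WT cells were aligned by the authors with Cell Ranger to mm10 with a tdTomato sequence added, and the deposited values are raw UMI counts per gene and cell. The deposited table of cells gives the quality and doublet calls, the percent of mitochondrial UMIs and the cell type labels that the authors transferred from a gastrulation atlas. Cells passing quality control and not called doublets were kept, and null cells were compared with WT-sorted cells without a tdTomato UMI. Counts were summed per library and per library and cell type. Predicted, Rik, ribosomal, mitochondrial, haemoglobin, Xist, Tsix and Y-linked genes were left out of the tests. All 16 libraries entered 1 edgeR quasi-likelihood fit (R 4.3.3, edgeR 4.0.16, TMM factors, filterByExpr), with Benjamini-Hochberg adjustment and calls at an adjusted p under 0.05. The same test was run in each cell type that had over 15 cells in 2 or more libraries a group. Single members were compared by exact permutation of log2(CPM + 1). Alternatives were DESeq2 1.42.0, RLE factors, no filter, a fold threshold, more than 50 cells a type, equal weight to cell types (limma 3.58.1), labels left out and each library left out. Scripts were tested on simulated data. The members and gene lists were chosen with earlier results of these data known. All 10 members were examined in every comparison, and those not named in one are covered by its counts. List genes are named only where called (at most 6 a list and comparison), and for the nearest patterns the 3 genes with the highest correlation. Cell types were chosen for naming after their values were seen. Libraries could be matched to a group but not to an embryo pool, so p-values measure the spread between libraries, which may be technical. The methods give 2 individually processed E9.5 embryos and the labels 4 pools of 1, and which E9.5 libraries share an embryo was not given in the sources used here. Intervals cover counting error only.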

Additional observations from a re-analysis of the deposited data

Results flagged for a closer look

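Among 20 groups of 4 libraries, in which chance would flag about 1 in 20, 2 members had a library apart from the other 3. Tet3 stood at 50.001 CPM in E9.5 WT D, below the other WT libraries at 56.2 CPM each. Trim28 stood at 299.8 CPM in E9.5 WT C, above the other WT libraries at 264 to 270.0 CPM. Both libraries share cell barcodes with each other.

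The null effect on Dnmt3l differed between stages by a test of the difference itself. It was higher at E9.5 than at E7.5 by 4.88 and higher at E8.5 than at E7.5 by 6.50 on the log2 scale. The E7.5 WT libraries held ExE ectoderm, where most Dnmt3l UMIs lay, and the E8.5 libraries held none. Without blood and extra-embryonic labels the differences were 3.63 (edgeR adjusted p 0.287) for E8.5 and 2.41 (adjusted p 0.252) for E9.5. The part of that tissue was otherwise not tested.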

How the results depend on the processing

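Of 2784 values recomputed under alternatives, 2692 kept their side of the threshold or moved by less than the limit set, and 172 uncalled values changed sign. Equal weight to cell types, which for E7.5 to E8.5 rests on 2 types, reversed Dnmt3a to +0.80 in WT and +0.72 in null libraries and Zfp57 to +0.17 and +0.0195. It also gave 8 members called from E8.5 to E9.5 in WT and 8 in null libraries, 2 from E7.5 to E8.5 in null libraries, and 1 (Dnmt3l) between genotypes over the average of stages. At the second step this weighting moved the median of all genes by 0.154 in WT and 0.175 in null libraries, and the Dnmt1 and Uhrf1 values gained there were 0.19 and 0.18 in WT. A further threshold of an absolute log2 fold over 1 left 2 and 1 members called over the successive WT steps and 2 and 0 over the null steps. Without blood and extra-embryonic labels 0 members were called in either genotype by stage comparison. DESeq2 called 1 member (Dnmt3l, −0.94) over the average of stages, and no filter on low counts 1 within types at E7.5. Without E9.5 WT C and D, an alternative chosen after seeing the data, 3 members were called from E8.5 to E9.5 in WT, with Dnmt3b and Tet3 lost. The causes were not tested. Counts of members under these alternatives, and with each library left out, stand without the share of all genes called under the same setting. They describe stability and are not results about the members.

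With each library left out in turn, the members called ranged from 4 to 7 and 3 to 6 over the WT steps and from 4 to 8 and 3 to 6 over the null steps, lowest at the second WT step without E8.5 WT B and at the null steps without E7.5 null B and E8.5 null B. Within types the WT steps gave 4 to 5 and 17 to 49 calls. Between genotypes the range was 1 to 2 at E7.5 (2 without E7.5 WT B, with Dnmt3a gained), 0 to 1 over the average (1 without E7.5 WT B or E9.5 WT B) and 0 to 1 within types at E7.5 (1 without E7.5 WT A, on 1 WT library). The permuted difference ranged from 0.03 to 0.11 for Tet1 and from −0.11 to −0.01 for Uhrf1. No paired analysis was possible because the library names match no label that carries an embryo pool or replicate number.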
